A study of Mus musculus with 12 samples.

Results

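The genotype by tissue interaction asks, gene by gene, whether loss of TrIP went with a different expression difference in tumor than in the tumor-draining lymph node (TDLN). It is the log2 difference of KO over WT in tumor minus the log2 difference of KO over WT in TDLN, so a value above 0 means that KO over WT was higher in tumor. It was estimated for each gene whose mean over all libraries reached 1 CPM, the depth-scaled count unit, here 24.9 normalized counts, which held for 16065 of 26962 genes. The 4 groups were KO tumor, KO TDLN, WT tumor and WT TDLN, with 3 libraries each and 12 in all. KO mice carried a CD8-specific knockout of TrIP, and WT mice did not. All mice bore MC38, a mouse colon carcinoma line, and cells were taken on day 10 after its injection. Every library was polyA RNA of CD8 T cells sorted by binding of the Rpl18 tetramer, which stains T cells whose receptor recognises that tumor antigen. The driver of the knockout, the deleted exons, the strain, age and sex of the mice, and whether a library is 1 mouse or a pool are not stated in the labels. P-values therefore measure the spread between libraries, which may be technical.

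TrIP, the product of Pik3ip1, is a transmembrane protein that binds the catalytic subunit of phosphoinositide 3-kinase (PI3K) and lowers its activity. In T cells PI3K is switched on by the antigen receptor and costimulation. Its product recruits AKT, which feeds mTOR and holds FOXO1 out of the nucleus, and this pathway promotes nutrient uptake, lipid synthesis, cell division and effector function. The lymph node is where such T cells are primed, and the tumor is where they meet their target under low nutrient and oxygen supply.

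Depth was 18.3 M to 36.9 M estimated reads in genes per library. Values below are normalized counts, estimated read counts divided by a size factor per library. The first principal component, with 63.4% of the variance, separated tumor from TDLN libraries, and the second, with 8.2%, set WT tumor replicate 3 apart. The median residual SD was 0.42 in tumor and 0.27 in TDLN on the log2 scale. Replicate 3 of each group, 4 libraries in all, held Xist at 2485 to 3845. The replicate 3 tumor libraries also held the Y-linked Eif2s3y, at 790 in KO and 399 in WT, and the replicate 3 TDLN libraries did not. These libraries were balanced over the 4 groups, and the plot of list medians gives each of its lists without them. The defining CD8 genes were high throughout, with Cd8a between 15400 and 22200 in KO libraries and between 12600 and 38000 in WT libraries. Cd4 stayed at or below 23.6 and the natural killer gene Ncr1 at or below 14.9 in every library. Another natural killer gene, Klrb1c, reached 125 in KO tumor. Transcripts of other cells were present in tumor. Lyz2, a macrophage gene, had 9640 to 30100 in KO tumor and 3130 to 15200 in WT tumor, and at most 50.4 in TDLN. Csf1r had 383 to 1020 in KO tumor and 417 to 450 in WT tumor. Col1a1, a stromal gene, had 344 to 362 in KO tumor and 144 to 7680 in WT tumor.

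No gene passed the interaction test. Of 16065 genes, 0 (0%) had a limma adjusted p under 0.05, and the smallest adjusted p was 1. At an unadjusted p under 0.05 there were 465 genes (2.89%), of which 298 (1.85%) lay above 0 and 167 (1.04%) below. That share was below the level of 0.05 itself, so the 465 were no more than such a level gives where no gene differs. The interaction was above 0 for 50.6% of genes, with a median of 0.01 on the log2 scale. The size factors bear on that centre and on the split. With columns rescaled to a common total the median was 0.09 and 409 genes lay above 0 and 97 below at an unadjusted p under 0.05, and after quantile normalization 240 lay above and 206 below. Without any filter on low values 1 of 26962 genes passed, and 866 had an unadjusted p under 0.05.

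The precision behind this result was limited. The interaction combines 4 group means, and its standard error had a median of 0.43, with 0.27 and 0.73 at the 10th and 90th percentiles. The median reach of the 95% interval to either side was 0.94. For a typical gene, the KO over WT difference could differ between tissues by nearly 1 on log2 either way and stay inside the interval. The interaction exceeded 1 for 568 genes (3.54%) and lay under -1 for 294 genes (1.83%).

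The tumor supplied most of the spread. The median absolute KO over WT difference was 0.24 in tumor and 0.15 in TDLN, and no gene passed that test in either tissue. Across genes, the difference in tumor and the difference in TDLN were nearly unrelated, with a Pearson r of 0.05 and a Spearman coefficient of 0.09 over 16065 genes, which are not independent replicates. Of the 465 genes with an unadjusted p under 0.05, 395 had the larger difference in tumor and 423 had opposite signs in the tissues. Such signs follow in part from how the interaction is formed.

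**Figure D1:**
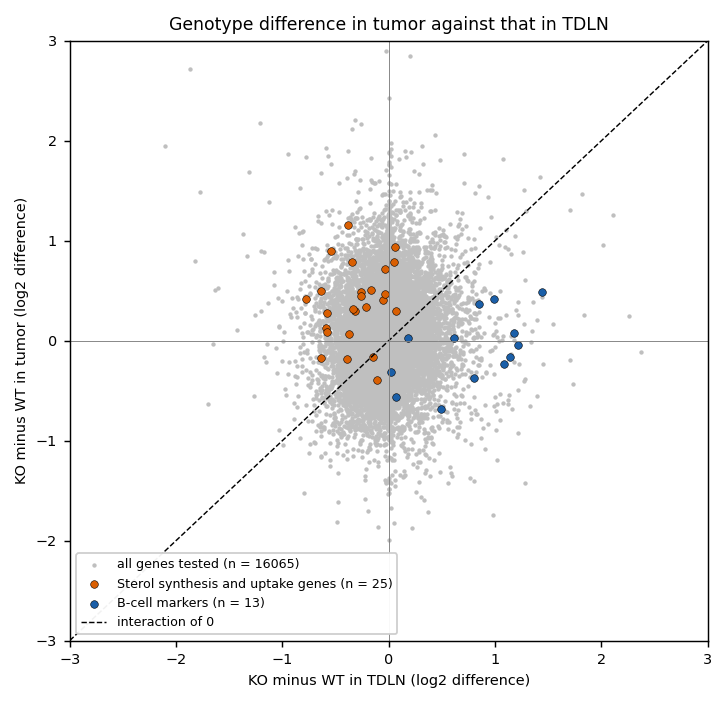
Each grey point is 1 of 16065 genes, placed by its KO minus WT log2 difference in TDLN on the horizontal axis and in tumor on the vertical axis, and on the dashed line the interaction is 0. The sterol synthesis and uptake genes (orange, 25) sit mostly above the line with a median interaction of 0.68, the B-cell markers (blue, 13) all sit below it, and 2 genes lie outside the plotted range of 3 either way.

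The targeted gene did not set KO apart from WT. Pik3ip1 (ENSMUSG00000034614, GRCm38 chromosome 11, 3330401 to 3342971, plus strand) had 173, 95.2 and 55.5 normalized counts in KO tumor, against 179, 119 and 138 in WT tumor. The TDLN libraries held 854, 1009 and 1573 in KO and 607, 1095 and 834 in WT. KO and WT overlapped in both tissues, and KO TDLN was not the lower group. The log2 interaction was -0.86 (SE 0.49, 95% interval -1.92 to 0.21, n = 3 libraries per group, limma adjusted p = 1). Counts are over the whole gene and the deleted part is not known here, so they do not check the knockout, and KO and WT below are the labels of the libraries. Both genotypes held far less Pik3ip1 in tumor than in TDLN, by -3.19 in KO and -2.33 in WT on the log2 scale (limma adjusted p = 4.28e-05 in KO and 0.000530 in WT).

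Among the other brakes of PI3K signalling, the list of inhibitors and phosphatases had 8 of 15 tested members above 0 and a median interaction of 0.02, against 0.01 over all genes. Phlpp2, a phosphatase that removes an activating phosphate from AKT, was the member with the smallest p. It had 181, 151 and 226 in KO tumor and 171, 81.7 and 117 in WT tumor, and 104, 115 and 84.5 in KO TDLN and 149, 189 and 198 in WT TDLN. The TDLN groups did not overlap, KO being lower, while the tumor groups did, and the interaction was 1.23 (SE 0.39). Dok1, an adaptor that restrains receptor signalling, followed at 1.07 (SE 0.42) with 133, 139.6 and 94.3 in KO tumor, each above the 74.2, 49.5 and 75.2 of WT tumor. In TDLN Dok1 had 48.0, 31.8 and 72.0 in KO and 75.8, 93.4 and 49.0 in WT, with overlap. None of the 15 members passed the test. The median of the list ran from 0.01 without WT tumor replicate 3 to 0.23 without KO tumor replicate 3.

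The kinases and adaptors of the same pathway had 13 of 22 members above 0 and a median of 0.09, which was -0.05 without KO tumor replicate 2 and 0.27 without KO tumor replicate 3. Sgk1, a kinase related to AKT and activated downstream of PI3K, was the member with an unadjusted p under 0.05. It had 2556, 2653 and 3197 in KO tumor, each above the 1600.3, 1108 and 1742 of WT tumor. In TDLN the groups overlapped, with 1285, 1440.0 and 1362 in KO and 1677, 842 and 1669 in WT, and the interaction was 0.89 (SE 0.36). Pik3cb, a catalytic subunit of PI3K, stood at 1.00 (SE 0.48) and Mtor at 0.49 (SE 0.36). The targets of FOXO1 and quiescence genes had 13 of 20 above 0 and a median of 0.17, which was -0.02 without WT tumor replicate 1 and 0.31 without KO TDLN replicate 3. Of these, Cited2, a transcriptional coregulator, had 2185, 2376 and 1644 in KO tumor against 1444, 1321 and 1977 in WT tumor, and 449.5, 737 and 637 in KO TDLN against 689, 951 and 774 in WT TDLN. Its groups overlapped in both tissues, and its interaction was 0.79 (SE 0.33).

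The gene with the smallest p above 0 was Alox8, a lipoxygenase that oxidises arachidonic acid. It had 1891, 973 and 1654 normalized counts in KO tumor, against 384, 339.9 and 237 in WT tumor. In TDLN it was low in both genotypes, with 1.55, 25.2 and 4.80 in KO and 9.09, 8.94 and 44.7 in WT. The tumor groups did not overlap, the lowest KO library standing above the highest WT library by a wide margin. The interaction was 2.46 (SE 0.53, 95% interval 1.30 to 3.62, limma adjusted p = 1), and it stayed between 2.12 and 2.74 when any library was left out.

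Klra5, a lectin-like receptor of the Ly49 family on natural killer cells and some activated CD8 T cells, had the same shape. It had 389, 816 and 370.1 in KO tumor and 102, 163 and 91.1 in WT tumor, and it was listed at 0 in all 6 TDLN libraries, so its interaction of 1.88 (SE 0.46) is its tumor difference. Ly49 genes are near-identical copies, and their reads may have been split between them. Fam217b had 83.0, 145 and 172 in KO tumor against 34.0, 7.17 and 10.6 in WT tumor, and at most 0.96 in any TDLN library. Ankrd1, an ankyrin-repeat protein known as a stress-induced gene of heart muscle, had 321, 353 and 624 in KO tumor against 208, 93.2 and 44.5 in WT tumor, and at most 8.76 in TDLN. In all of these the TDLN level was near 0 in both genotypes, so the interaction was set by the tumor libraries.

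Others of the leading genes were expressed in both tissues. Pitrm1, a peptidase of the mitochondrial matrix, had 221, 246 and 281 in KO tumor, each above the 129, 85.0 and 77.5 of WT tumor. TDLN values were 246, 188 and 141 in KO and 209.7, 232 and 288 in WT, with overlap, and the interaction was 1.51 (SE 0.37). Psrc1, a protein of the mitotic spindle, had 47.4, 63.4 and 63.8 in KO tumor and 26.8, 2.15 and 2.12 in WT tumor, with 2 WT libraries near 0. In TDLN Psrc1 had 48.7, 72.3 and 70.1 in KO and 159, 104 and 63.0 in WT, and its interaction was 1.84 (SE 0.49). Bckdhb, a subunit of the enzyme that breaks down branched-chain keto acids, had 91.2, 145 and 88.7 in KO tumor, each above the 37.1, 50.9 and 38.1 of WT tumor. Its TDLN values of 44.1, 42.7 and 23.0 in KO and 41.4, 68.3 and 54.3 in WT overlapped, and its interaction was 1.35 (SE 0.40). Hecw2, a ubiquitin ligase, stood at 1.78 (SE 0.48) and Intu, a protein of cilium assembly, at 1.77 (SE 0.49).

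Below 0, the gene with the smallest p was Spef2, known for its role in sperm flagella. It had 45.6, 68.5 and 69.3 in KO tumor, each under the 142, 79.6 and 156 of WT tumor. In TDLN the order was the opposite, with 128, 119 and 183 in KO, each above the 79.8, 51.2 and 70.0 of WT. The interaction was -1.65 (SE 0.41, 95% interval -2.55 to -0.76, limma adjusted p = 1). Rbm3os, a noncoding RNA on the strand opposite to Rbm3, also crossed, with 18.6, 42.9 and 42.9 in KO tumor and 67.4, 109.5 and 108 in WT tumor, against 64.3, 70.3 and 81.3 in KO TDLN and 54.6, 55.6 and 42.8 in WT TDLN. The kit is stranded but the labels do not state the counting setting, so reads of Rbm3os and Rbm3 cannot be told apart.

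Zbtb21, a zinc-finger repressor of transcription, had 281, 203 and 263 in KO tumor, each under the 424, 507 and 432 of WT tumor. In TDLN it had 294, 249.7 and 261 in KO and 261, 158 and 223 in WT, nearly separated the other way, and its interaction was -1.13 (SE 0.32). Trmt44, a tRNA methyltransferase, had 21.0, 24.1 and 13.9 in KO tumor, the lowest of the 4 groups, and 76.3, 50.9 and 148 in WT tumor. Its TDLN values of 104, 66.8 and 97.9 in KO and 31.3, 104 and 48.2 in WT overlapped, and its interaction was -1.79 (SE 0.53). Tasl, an adaptor that couples endosomal Toll-like receptors to IRF5, had 709, 537 and 552 in KO tumor and 1169.5, 799 and 1272 in WT tumor, with no overlap. In TDLN Tasl had 1389.5, 1429 and 1182 in KO and 1480.1, 956 and 1057 in WT, which overlapped, and its interaction was -1.02 (SE 0.32).

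Some of the genes below 0 rested on libraries at or near 0. Platr27, a noncoding RNA, was listed at 0 in the 3 KO tumor libraries, against 102, 86.8 and 15.9 in WT tumor. The TDLN libraries held 42.6, 159 and 109 in KO and 108, 36.6 and 1.75 in WT, a wide spread in both. Rnf113a1, an X-linked splicing factor, had 0.912, 1.27 and 69.3 in KO tumor, where the KO library with Xist was the one away from 0. WT tumor had 91.7, 165 and 118, and TDLN had 225, 179.6 and 336 in KO and 179, 205 and 228 in WT. The 10 genes were completed by Fahd2a at -1.39 (SE 0.41), Srsf12, a splicing regulator, at -1.95 (SE 0.58) and Zfp268, a zinc-finger protein, at -1.24 (SE 0.40). In choosing these 10 genes in each direction, 5 genes above 0 and 9 below 0 with predicted, segment or mitochondrial symbols were passed over.

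Another reading looks for genes whose KO and WT libraries did not overlap in either tissue and lay in opposite orders. There were 40 such genes of 16065 (0.249%), 21 with KO higher in tumor and 19 with KO lower in tumor. For comparison, 36 genes were separated the same way in both tissues. KO and WT did not overlap in tumor for 1201 genes (7.48%) and in TDLN for 1020 genes (6.35%). Of the 40, 30 had an unadjusted p under 0.05 and 0 passed the test. Because the 40 were picked from the same libraries by their opposite orders, a small unadjusted p is no separate evidence.

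Tnfrsf1a, the main receptor of TNF, was one of them. It had 419.6, 735 and 409 in KO tumor, against 219, 272 and 263 in WT tumor. TDLN values were 80.5, 78.8 and 81.6 in KO, a narrow range just under the 92.9, 149.5 and 85.8 of WT. The interaction was 1.26 (SE 0.39). Alas1, the first enzyme of heme synthesis, had 265, 285 and 213 in KO tumor and 89.6, 199 and 200.2 in WT tumor, and 173, 184 and 144 in KO TDLN and 234, 360.3 and 234 in WT TDLN, with an interaction of 1.26 (SE 0.42). The gaps between the groups were small, 213 in KO tumor against 200.2 in WT tumor at the nearest for Alas1.

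The other crossed genes named by size with KO higher in tumor were Hacd4, an enzyme of very-long-chain fatty acid elongation (1.54), Bcar1, an adaptor of integrin signalling (1.53), and Arhgap4, an inhibitor of small GTPases (1.22). With KO lower in tumor they were Gpt, alanine aminotransferase (-1.14), Araf, a RAF family kinase (-0.68), and Rchy1, a ubiquitin ligase (-0.65). Araf and Rchy1 were the tightest of these. Araf had 741, 892 and 754 in KO tumor and 1057, 1294 and 943 in WT tumor, then 1089, 1050.2 and 932 in KO TDLN and 845, 889 and 861 in WT TDLN (SE of the interaction 0.24). Rchy1 had 1885, 1505 and 1606 in KO tumor and 2223, 2103 and 2261 in WT tumor, then 2694, 2748 and 3293 in KO TDLN and 2589.8, 2448 and 2291 in WT TDLN (SE 0.21).

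The sterol synthesis and uptake genes leaned to one side. These genes build cholesterol from acetyl-CoA and take it up, under the transcription factors SREBP. Of 25 tested members, 23 had an interaction above 0, where 50.6% of all genes did, and the median was 0.68 against 0.01 over all genes. Like all lists here, this one was chosen with earlier results of these data known. Its members were measured in the same 12 libraries, so they are not independent and their count is no separate evidence. The tumor and TDLN differences contributed from opposite sides, with medians of 0.41 in tumor, where 21 of 25 were above 0, and -0.32 in TDLN, where 3 of 25 were. KO and WT did not overlap in tumor for 6 members, all with KO higher, and in TDLN for 3 members, all with KO lower, where 4.1% and 3.18% of all genes were so separated. None of the 25 passed the test, and 4 had an unadjusted p under 0.05, all above 0, against 1.85% of all genes. Macrophage markers made up 0.132% to 0.308% of normalized counts in KO tumor and 0.0812% to 0.164% in WT tumor, and their part in the tumor differences was not tested.

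Cyp51, the lanosterol demethylase, had the smallest p of the list. It had 2039, 2187 and 2058 normalized counts in KO tumor, each above the 1463, 1158 and 807 of WT tumor. In TDLN it had 914, 891 and 599 in KO and 1164, 803 and 1643 in WT, with overlap by 1 WT library. The interaction was 1.44 (SE 0.39, 95% interval 0.59 to 2.29, limma adjusted p = 1). KO tumor was thus the highest group and the most even, and KO TDLN the lowest.

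Sqle, squalene epoxidase, a rate-limiting step of the pathway, had 448, 370.5 and 786 in KO tumor and 391, 313 and 423 in WT tumor, which overlapped. The TDLN libraries held 248, 352 and 156 in KO, each under the 369, 420.1 and 512 of WT, and the interaction was 1.20 (SE 0.45). Tm7sf2, a sterol reductase with an unadjusted p under 0.05 that was chosen for mention after its values were seen, had 189, 96.7 and 103 in KO tumor, each above the 79.8, 36.6 and 74.6 of WT tumor. Its TDLN values were 84.5, 46.4 and 77.2 in KO and 82.1, 63.9 and 147 in WT, with an interaction of 1.14 (SE 0.50). Hmgcs1, which makes HMG-CoA and was likewise chosen afterwards for its promoter, had 2643, 2439 and 2718 in KO tumor and 2394, 2179 and 1783 in WT tumor. Its TDLN values were 2894, 3494 and 1892 in KO and 3724, 2089 and 4811 in WT, and its interaction was 0.62 (SE 0.41). Spring1, a regulator of SREBP processing that is outside the list and was chosen afterwards from the crossed genes, had 229.8, 139.6 and 149.7 in KO tumor and 127, 101 and 137 in WT tumor. In TDLN Spring1 had 97.5, 142 and 93.1 in KO and 149, 174 and 155 in WT, and its interaction was 0.87 (SE 0.36).

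The promoters of 3 of these genes are shown because SREBP is known to act on sterol promoters together with NF-Y, whose motif is CCAAT. They are the 250 bases before the RefSeq start (GRCm38.p6), in lower case, with CCAAT or its reverse complement ATTGG, and the sterol element TCACNCCAC on either strand, in capitals. Cyp51 lies at chr5:4104698-4104947 on the minus strand, Tm7sf2 at chr19:6067851-6068100 on the minus strand and Hmgcs1 at chr13:119690101-119690350 on the plus strand.
Cyp51: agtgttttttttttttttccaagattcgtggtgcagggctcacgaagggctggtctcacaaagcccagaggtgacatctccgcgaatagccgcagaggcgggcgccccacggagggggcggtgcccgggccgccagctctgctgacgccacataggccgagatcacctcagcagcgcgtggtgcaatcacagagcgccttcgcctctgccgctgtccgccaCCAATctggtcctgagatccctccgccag
Tm7sf2: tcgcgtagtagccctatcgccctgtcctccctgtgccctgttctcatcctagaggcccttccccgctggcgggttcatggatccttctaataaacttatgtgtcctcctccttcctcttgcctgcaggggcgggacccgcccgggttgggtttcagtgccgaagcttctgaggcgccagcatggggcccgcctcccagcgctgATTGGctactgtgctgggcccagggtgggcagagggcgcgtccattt
Hmgcs1: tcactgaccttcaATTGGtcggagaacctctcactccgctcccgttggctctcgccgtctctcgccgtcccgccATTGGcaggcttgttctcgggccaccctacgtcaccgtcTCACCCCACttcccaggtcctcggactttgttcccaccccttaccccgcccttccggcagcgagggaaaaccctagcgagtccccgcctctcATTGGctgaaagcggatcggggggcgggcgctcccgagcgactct
Of the 26 listed sterol genes, 18 had a promoter entry, and 16 of these 18 held CCAAT on either strand in these 250 bases. The same motif was found in 33.8% of 32851 promoters and in 41.2% of the 9502 tested genes with an entry. TCACNCCAC was found in 1 of the 18, Hmgcs1, and in 1.05% of all promoters and 1.13% of the tested genes with an entry. A match describes the sequence and is not a measured binding site.

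The level of the whole sterol list in each library, as the mean over its members of the log2 value centred on each gene's mean, showed how even the pattern was. It was 0.10, 0.05 and 0.39 in KO tumor and 0.03, -0.23 and -0.40 in WT tumor, which did not overlap. It was 0.03, 0.00 and -0.46 in KO TDLN and 0.01, -0.06 and 0.54 in WT TDLN, which did. The TDLN difference in level rested on 1 library of each group, KO replicate 3 and WT replicate 4. The remaining levels, 0.03 and 0.00 in KO and 0.01 and -0.06 in WT, overlapped and did not show KO as the lower group. Without KO TDLN replicate 3 the median interaction was 0.48, the lowest over the libraries left out in turn, and without the 4 libraries with Xist it was 0.52.

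The fatty acid synthesis genes, which share SREBP control, had 11 of 14 members above 0 and a median of 0.62, with 0.48 in tumor and -0.13 in TDLN. There were 4 members that had an unadjusted p under 0.05, all above 0, against 1.85% of all genes, and none passed the test. Elovl6, a fatty acid elongase, had 233, 324 and 753 in KO tumor, each above the 175, 163 and 124 of WT tumor. TDLN values were 95.9, 262 and 269.8 in KO and 218, 202 and 358 in WT, and the interaction was 1.56 (SE 0.61). The desaturase Fads1 stood at 1.49 (SE 0.63), and its neighbour Fads2, chosen after its values were seen, at 1.45 (SE 0.64). Srebf1, which encodes SREBP of the fatty acid branch, had 476, 421 and 345 in KO tumor and 224, 221 and 400.0 in WT tumor. Its TDLN values were 442, 432 and 268 in KO and 434, 411 and 634 in WT, with an interaction of 0.91 (SE 0.40). The median of the list was 0.35 without WT tumor replicate 3. Of the 9 LXR and cholesterol efflux genes tested, 0 had an unadjusted p under 0.05, against 2.89% of all genes. These genes, which act against sterol load, had 6 of 9 above 0 and a median of 0.10. That median ran from -0.05 without KO tumor replicate 2 to 0.32 without WT TDLN replicate 4.

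**Figure D2:**
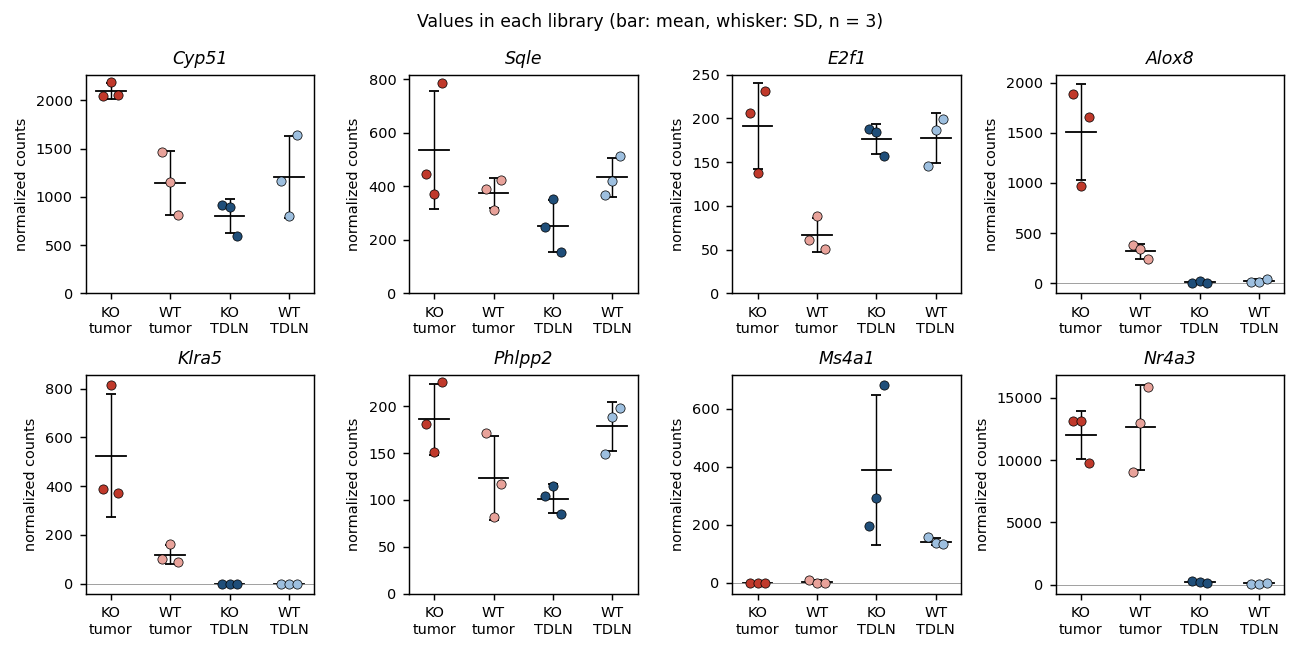
Normalized counts of 8 genes in every library, each axis starting at or just under 0, with points for libraries, bars for means and whiskers for the SD (n = 3). Cyp51 and E2f1 are higher in every KO tumor library than in every WT tumor library, Alox8 and Klra5 are near or at 0 in TDLN, and Ms4a1 is near 0 in tumor and highest in KO TDLN.

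Cell cycle genes were lower in tumor than in TDLN in both genotypes, and that tissue difference was smaller in KO at face value. Of 30 replication and S-phase genes, 20 were lower in tumor than in TDLN in KO and 28 in WT (limma adjusted p under 0.05). Of 30 G2 and mitosis genes, 19 were lower in KO and 29 in WT. Among all 16065 genes, 2017 were lower in tumor in KO and 1752 in WT by the same test. The interaction was above 0 for 26 of the 30 S-phase genes, with a median of 0.39, and for 28 of the 30 G2 and mitosis genes, with a median of 0.53. No member passed the interaction test, so a smaller tissue difference in KO was not established for any of them.

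E2f1, a transcription factor that opens S phase, had 206, 137 and 232 in KO tumor, each above the 60.8, 88.2 and 50.8 of WT tumor. In TDLN it had 188, 184 and 157 in KO and 145, 187 and 199.6 in WT, with overlap, and the interaction was 1.24 (SE 0.37, 95% interval 0.44 to 2.04, limma adjusted p = 1). Mcm7, a subunit of the replicative helicase, had 1191, 1602 and 1109 in KO tumor, each above the 997, 803 and 869 of WT tumor, and its interaction was 0.80 (SE 0.32). Mki67, the proliferation marker, had 2371, 4400.1 and 3220.4 in KO tumor and 5249, 1228 and 2311 in WT tumor, which overlapped, and its interaction was 0.53 (SE 0.56). That value was 1.07 without WT tumor replicate 1, 0.03 without WT tumor replicate 3 and 0.05 without the 4 libraries with Xist. Ccnb1, the cyclin of mitotic entry, had 684, 1023 and 1418 in KO tumor and 1118, 105 and 632 in WT tumor, with an interaction of 1.26 (SE 0.84). For Ccnb1 the value was 1.91, 0.35 and -0.15 under the same 3 choices.

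The WT tumor libraries spread widely here. The level of the G2 and mitosis list was -0.82, -0.57 and -0.37 in KO tumor, inside the -0.04, -2.11 and -1.01 of WT tumor, and 1.01, 0.90 and 0.47 in KO TDLN, against 0.95, 0.76 and 0.83 in WT TDLN. The lowest WT tumor library was replicate 3, the one set apart by the second principal component. The median interaction of that list was 0.08 without WT tumor replicate 3, 1.09 without WT tumor replicate 1 and -0.20 without the 4 libraries with Xist. For the S-phase list it was 0.24, 0.58 and 0.22 under the same 3 choices.

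**Figure D3:**
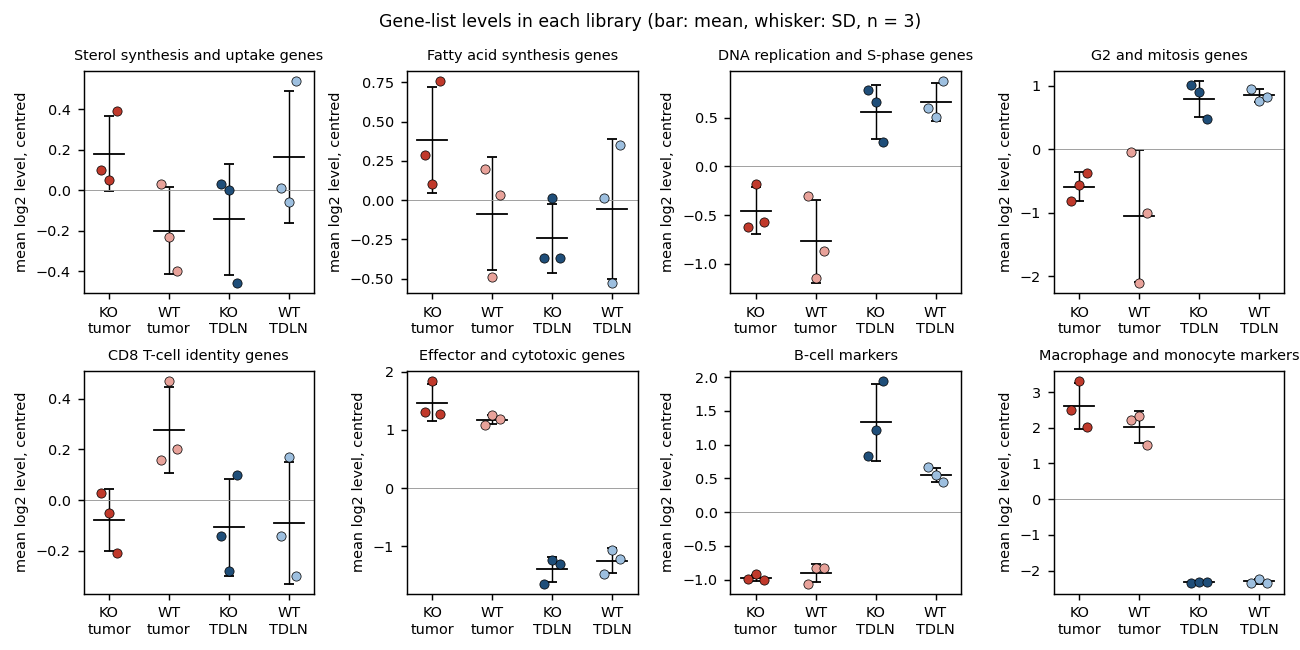
Mean log2 level of 8 gene lists in every library, centred on each gene's mean over the 12 libraries, with points for libraries, bars for means and whiskers for the SD (n = 3). The sterol list runs from 0.05 to 0.39 in KO tumor and from -0.40 to 0.03 in WT tumor, while the G2 and mitosis list spans -2.11 to -0.04 in WT tumor alone.

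The CD8 T-cell identity genes, which encode the antigen receptor complex and its proximal signalling, leaned the other way. Of 20 members, 2 had an interaction above 0, and the median was -0.35, with -0.34 in tumor and -0.01 in TDLN. KO and WT did not overlap in tumor for 9 members, all with KO lower, where 3.37% of all genes were separated in that direction, and in TDLN for 0 members. The level of the list was 0.03, -0.05 and -0.21 in KO tumor, each under the 0.16, 0.47 and 0.20 of WT tumor. In TDLN it was -0.14, -0.28 and 0.10 in KO and -0.14, 0.17 and -0.30 in WT, with full overlap. The median interaction stayed between -0.48 and -0.24 over the libraries left out in turn. None of the 20 passed the test.

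Among them Cd3g, a chain of the receptor complex, had 16752, 14674 and 15360.2 in KO tumor and 27611, 20317 and 17214 in WT tumor, without overlap, and its interaction was -0.56 (SE 0.26). Cd2, an adhesion receptor, stood at -0.74 (SE 0.35). Cd8a itself had 22178, 18065 and 18952 in KO tumor, each under the 24756, 37954 and 27564 of WT tumor, and 16489, 15354 and 18559.9 in KO TDLN and 13964, 24404 and 12566 in WT TDLN, with an interaction of -0.63 (SE 0.33). In bulk RNA fewer cells of a type and less RNA per cell cannot be told apart. The part of the macrophage transcripts, whose shares are given above, in these T-cell values was not tested.

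Effector and cytotoxic genes had 20 of 29 members above 0 and a median of 0.36, which was 0.17 without KO tumor replicate 1. Gzmc, a granzyme of highly stimulated killer cells whose reads may be shared with other granzymes, had 1258, 7133 and 2622 in KO tumor and 1226, 149.9 and 1194 in WT tumor. Its interaction of 2.43 had an SE of 1.04, since 1 KO library was far higher and 1 WT library far lower than the rest. Nkg7, a granule membrane protein, went the other way, with 100800.0, 78799 and 104746 in KO tumor, each under the 132081, 163072 and 113637 of WT tumor. TDLN values were 59426, 59366 and 71966 in KO and 61178, 62130.1 and 65923 in WT, and its interaction was -0.53 (SE 0.23). Gzmb, the main granzyme of CD8 cells, had 20828, 54524 and 27237 in KO tumor and 42116, 19409.9 and 17859 in WT tumor, and 2317, 9852 and 3789.8 in KO TDLN and 3540.1, 3942 and 11660.1 in WT TDLN. Both pairs overlapped, and its interaction was 0.66 (SE 0.81), which ran from 0.12 without WT TDLN replicate 4 to 1.24 without KO TDLN replicate 2. Cx3cr1, a chemokine receptor of circulating effector cells, stood at 0.99 (SE 0.46), set by TDLN, where it had 87.4, 141 and 193 in KO, each under the 254, 471 and 206 of WT.

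The exhaustion genes had no common direction. The inhibitory receptor and exhaustion list had 14 of 27 members above 0 and a median of 0.04. There were 2 members with an unadjusted p under 0.05, both below 0, against 1.04% of all genes. Pdcd1, which encodes PD-1, had 4016, 4419 and 3372 in KO tumor, each under the 5235, 4726 and 5029 of WT tumor, and 646, 776 and 394 in KO TDLN and 696, 1225 and 490.3 in WT TDLN. Its interaction was 0.00 (SE 0.43, 95% interval -0.93 to 0.92). Tox, the transcription factor of exhausted cells, had 1551, 586 and 836 in KO tumor and 2884, 1000.2 and 1632 in WT tumor, with an interaction of -0.73 (SE 0.70). It ran from -1.14 without WT TDLN replicate 3 to -0.19 without WT TDLN replicate 4, and was -1.41 without the 4 libraries with Xist. Nr4a3, a nuclear receptor induced by the antigen receptor, had 13162, 13117 and 9778 in KO tumor and 9069, 13007 and 15855 in WT tumor, which overlapped. In TDLN, at far lower levels, it had 272, 185 and 154 in KO, each above the 86.9, 82.1 and 134 of WT, and its interaction was -0.90 (SE 0.37). Batf, a transcription factor of effector and exhausted cells, had 916, 652 and 781 in KO tumor, each under the 1155, 2537 and 1143 of WT tumor, and its interaction was -0.89 (SE 0.40).

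The early antigen receptor response genes had 18 of 30 above 0 and a median of 0.07. Cd69, an activation marker that also holds cells in tissue, had 11234, 7890.4 and 9363 in KO tumor, inside the 7169, 24829 and 17489 of WT tumor, and 1463, 1276 and 2061 in KO TDLN and 918, 1887 and 573 in WT TDLN. Its interaction was -1.27 (SE 0.63). Ifng, the effector cytokine, had 46084, 28342 and 20832 in KO tumor, inside the 7286, 111942 and 20837 of WT tumor, and its interaction of -0.05 had an SE of 0.99. Tcf7, the transcription factor of stem-like T cells, had 521, 409 and 326 in KO tumor and 46.4, 699.8 and 343 in WT tumor, and 2872, 2205 and 4515 in KO TDLN and 2856, 3741 and 1681 in WT TDLN, with an interaction of 0.49 (SE 0.91). The signs of Pdcd1, Ifng and Tcf7 turned with the scale, the scaling or a library left out. For Tcf7 the library was WT tumor replicate 1, without which the interaction was -0.47.

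Other T-cell lists had medians within 0.2 of 0. The naive and stem-like genes had 8 of 20 above 0 and a median of -0.16, the residency genes 9 of 17 and 0.20, the egress and homing genes 15 of 19 and 0.20, and the cytokine receptor and STAT genes 14 of 22 and 0.10. The BCL2 family had 6 of 12 above 0 and a median of 0.05. Without WT tumor replicate 1 the median was -0.55 for the naive and stem-like genes, -0.14 for the residency genes, 0.05 for the egress genes, -0.28 for the exhaustion genes and -0.16 for the early response genes. Without the 4 libraries with Xist these medians were 0.12, -0.05, 0.61, -0.18 and 0.32 in the same order. The naive and stem-like median was also 0.18 without KO TDLN replicate 3, and the egress median 0.57 without WT tumor replicate 3. The cytokine receptor median ran from -0.19 without WT TDLN replicate 3 to 0.27 without WT TDLN replicate 1, and that of the BCL2 family from -0.04 without KO TDLN replicate 1 to 0.25 without WT tumor replicate 3. Interferon-stimulated genes had 8 of 25 above 0 and a median of -0.10, which moved to -0.80 when WT TDLN replicate 3 was left out and to 0.32 when replicate 4 was, and which was -1.15 without the 4 libraries with Xist. The level of that list was -0.39, -0.49 and -0.54 in KO TDLN and -0.99, 0.86 and -1.40 in WT TDLN, so a single WT library stood far above the other TDLN libraries.

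Stress and energy genes leaned above 0 without any member passing the test. Glycolysis and hypoxia genes had 20 of 24 above 0 and a median of 0.37, made of 0.16 in tumor and -0.21 in TDLN. It was 0.21 without KO TDLN replicate 3 and 0.20 without the 4 libraries with Xist. Hk1, which traps glucose in the cell, had 555, 689 and 457 in KO tumor, each above the 439, 327 and 389.8 of WT tumor, and 323, 346 and 279 in KO TDLN and 330.4, 492 and 314 in WT TDLN, with an interaction of 0.74 (SE 0.33). ATF4 and amino acid response genes had 18 of 20 above 0 and a median of 0.30, which was 0.01 without the 4 libraries with Xist. Trib3, a target of ATF4 that binds AKT, had 122, 90.1 and 149.7 in KO tumor and 124, 35.1 and 36.0 in WT tumor, at most 17.5 in TDLN, and an interaction of 1.20 (SE 0.53).

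Heat shock and dissociation genes, which cell isolation can raise, had 16 of 18 above 0 and a median of 0.38, which was 0.22 without WT TDLN replicate 4. Hspa1b, an inducible HSP70 gene with a near-identical neighbour, had 968, 3858 and 2267 in KO tumor and 1226, 1249.7 and 786 in WT tumor, and an interaction of 1.64 (SE 0.71). Glucocorticoid response genes had 8 of 10 above 0 and a median of 0.41, which was 0.20 without WT tumor replicate 3. By contrast, the respiratory chain genes of the nucleus had 10 of 26 above 0 and a median of -0.09, the mitochondrial transcripts 7 of 13 and 0.00, and the cytosolic ribosomal proteins 14 of 30 and -0.02. Atp5b, a subunit of ATP synthase, had the smallest p of the respiratory list, with 13779.8, 14519 and 12858 in KO tumor, each above the 11641, 11825 and 10767 of WT tumor, and an interaction of 0.44 (SE 0.20).

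**Figure D4:**
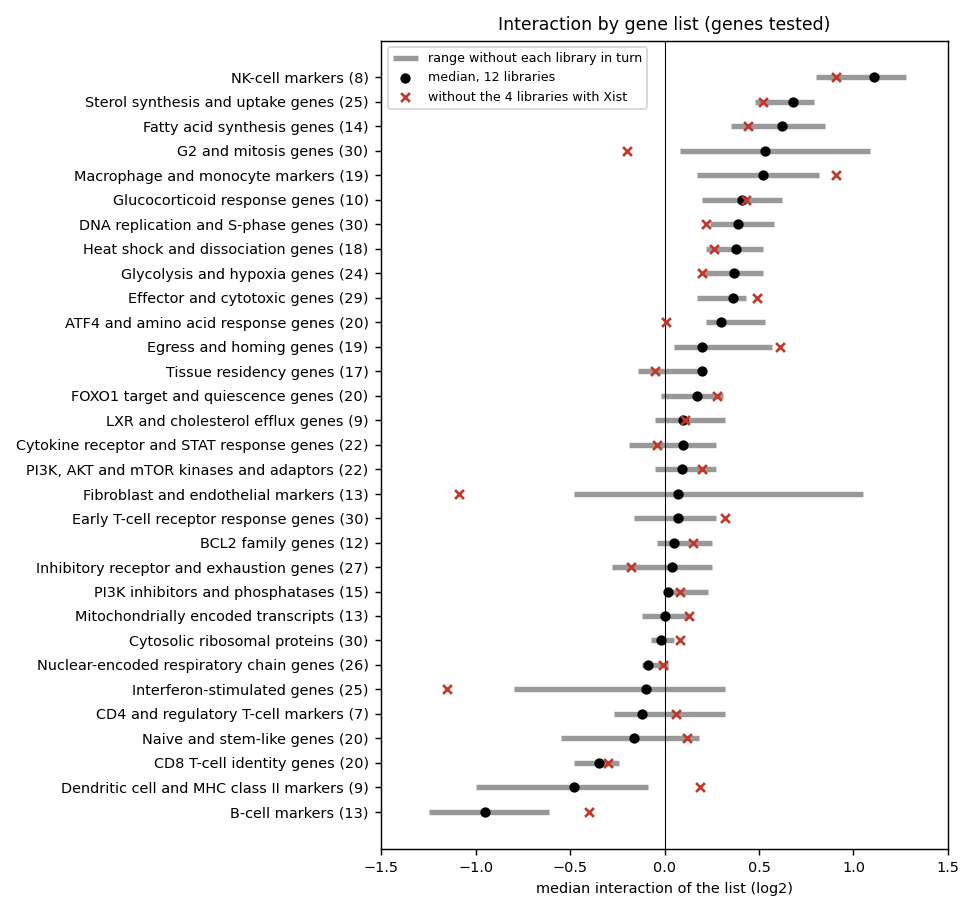
Median interaction (log2) of 31 gene lists, with the number of genes tested in brackets, as black points, the range over the 12 libraries left out in turn as grey bars, and the value without the 4 libraries with Xist as red crosses. The sterol list lies between 0.48 and 0.79 and the CD8 T-cell identity list between -0.48 and -0.24, while the G2 and mitosis list reaches 0.08 and crosses 0 without those 4 libraries.

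Markers of other cells were part of the interaction as well. The B-cell markers had 0 of 13 above 0 and a median of -0.95, with -0.04 in tumor and 0.85 in TDLN, where all 13 were higher in KO. KO and WT did not overlap in TDLN for 6 of them, all with KO higher, where 3.17% of all genes were so separated. Their summed share of normalized counts was 0.030% to 0.0497% in KO TDLN and 0.024% to 0.0322% in WT TDLN. In tumor it was 0.00554% to 0.00876% in KO and 0.00538% to 0.0128% in WT. B-cell transcripts were a small share everywhere, and the ranges of that summed share overlapped between KO and WT in both tissues. The level of the list, in which each member counts equally, was 0.83, 1.21 and 1.94 in KO TDLN, each above the 0.66, 0.55 and 0.45 of WT TDLN. In tumor it was -0.99, -0.92 and -1.01 in KO and -1.06, -0.83 and -0.83 in WT, with overlap.

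Ms4a1, which encodes CD20, had 195, 291 and 682 in KO TDLN, each above the 157, 136 and 134 of WT TDLN. In tumor it had 0, 1.27 and 0 in KO and 11.3, 0 and 0 in WT, and the interaction was -1.29 (SE 0.53). H2-Ob, a chain of the B-cell class II chaperone, had 192, 268 and 539.6 in KO TDLN and 96.0, 120.3 and 152 in WT TDLN, and at most 1.82 in any tumor library. Its interaction was -1.09, and it had the opposite sign, 0.89, with limma-voom on estimated reads. Cd79b, a chain of the B-cell receptor that was also present in tumor, had 52.0, 46.9 and 27.7 in KO tumor, each under the 93.8, 74.6 and 77.3 of WT tumor, and 545, 854 and 1261 in KO TDLN and 464, 646 and 689 in WT TDLN, with an interaction of -1.17 (SE 0.43). The median of the list was -0.61 without KO tumor replicate 3 and -0.40 without the 4 libraries with Xist. Of its members, Ly86 and H2-Ob were listed because earlier results of these data had named them.

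The macrophage and monocyte markers had 18 of 19 above 0 and a median of 0.52, all from the tumor side, with 0.56 in tumor and 0.00 in TDLN. Their summed share in tumor, given above, overlapped between KO and WT, and in TDLN it was at most 0.0127% in KO TDLN and 0.014% in WT TDLN. Fcgr1, an Fc receptor of macrophages, had 358, 638 and 286 in KO tumor, each above the 250.4, 165 and 159.9 of WT tumor, and an interaction of 1.05 (SE 0.44). Spp1, osteopontin, had 3264, 5976 and 4241 in KO tumor and 5524, 953 and 1166 in WT tumor, with overlap, and an interaction of 1.60 (SE 0.72). The highest share was that of KO tumor replicate 2, and without it the median of the list was 0.17, while without the 4 libraries with Xist it was 0.91. KO tumor replicate 2 also held Hba-a1, a hemoglobin gene, at 3360, where WT tumor reached 366.

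The natural killer markers had 7 of 8 above 0 and a median of 1.11, which lay between 0.80 and 1.28 over the libraries left out in turn. Their summed share was 0.0303% to 0.0441% in KO tumor, above the 0.0197% to 0.0298% of WT tumor. Tyrobp, a member of the list, had 2163, 3579 and 1321 in KO tumor and 1591, 1433 and 1327 in WT tumor, with overlap. It was highest in KO tumor replicate 2, the library with the highest macrophage share. The part of macrophage transcripts in this summed share was not tested. Klrb1c had 125, 45.7 and 12.5 in KO tumor and 2.06, 14.8 and 1.06 in WT tumor, with overlap. In TDLN it had 29.4, 19.7 and 76.8 in KO and 60.6, 53.6 and 24.5 in WT. The interaction of Klrb1c was 1.42 (SE 0.69). Ncr1, the defining gene of that lineage, was listed at 0 in all 3 KO tumor libraries and reached 4.12 in WT tumor. Cxcl2, a chemokine of myeloid cells in the neutrophil list, had 810.0, 3072 and 1288 in KO tumor and 739, 159.9 and 128 in WT tumor and was listed at 0 in all TDLN libraries, with an interaction of 2.43 (SE 0.79). Pf4, a platelet chemokine also made by macrophages, had 607, 993 and 434 in KO tumor and 413, 83.2 and 133 in WT tumor and was also listed at 0 in TDLN, with 1.77 (SE 0.63).

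The remaining marker lists were small or turned with single libraries. Neutrophil markers had a median of 1.01 over 3 members, which was 0.40 without KO tumor replicate 2 and 1.78 without the 4 libraries with Xist. Erythroid and platelet markers had 1.26 over 5, which was -0.54 without KO tumor replicate 2. Dendritic cell and class II markers had 3 of 9 above 0 and a median of -0.48, the CD4 and regulatory T-cell markers 2 of 7 and -0.12, and the fibroblast and endothelial markers 8 of 13 and 0.07. The dendritic cell median was -1.0 without KO tumor replicate 2, -0.09 without WT tumor replicate 3 and 0.19 without the 4 libraries with Xist. For fibroblast and endothelial markers it was -0.48 without KO tumor replicate 3, 1.05 without WT tumor replicate 4 and -1.09 without those 4 libraries. For CD4 and regulatory T-cell markers it was 0.32 without WT tumor replicate 4. Plasma cell markers had a median of 0.39 over 3 members, which was 0.12 without WT tumor replicate 1 and 0.10 without the libraries with Xist, tumor epithelial markers -0.05 over 2 and sex-linked genes -0.08 over 6. The part of any of these cell types in the interactions above was not tested.

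The interaction can also be read as the tumor over TDLN difference in KO minus that in WT. By limma at an adjusted p under 0.05, 4919 genes (30.6%) differed between tumor and TDLN in KO and 4312 (26.8%) in WT. Of these, 3257 were called in both genotypes, 66.2% of the KO calls and 75.5% of the WT calls, and all 3257 had the same direction. A further 1662 genes were called in KO and not in WT, of which 162 had an interaction with an unadjusted p under 0.05 and 0 passed the interaction test. Another 1055 were called in WT and not in KO, of which 107 had such a p and 0 passed. A tissue difference called in a single genotype was therefore not shown to differ between genotypes for any gene.

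The sterol list is an example. In KO, 6 of 25 members were higher and 1 was lower in tumor than in TDLN, and in WT 1 was higher and 6 were lower. Of all 16065 genes, 2902 were higher and 2017 lower in KO, and 2560 were higher and 1752 lower in WT. The share of the list called in either direction was therefore near that of all genes, 30.6% in KO and 26.8% in WT. The median tumor over TDLN difference was 0.03 in KO and -0.45 in WT. For Cyp51 it was 1.38 in KO (limma adjusted p = 0.00296) and -0.06 in WT (limma adjusted p = 0.900).

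Of all 26962 genes, 1 reached 1 CPM in the 3 libraries of a group and was listed at 0 in the other 9. Mexis, a noncoding RNA (ENSMUSG00000086712, named AI427809 in the annotation; GRCm38 chromosome 4, 53261356 to 53270232, minus strand), had 37.4, 49.5 and 52.7 normalized counts in KO tumor, about 41, 39 and 38 estimated reads. It was listed at 0 in the 3 KO TDLN, 3 WT tumor and 3 WT TDLN libraries. At any level above 0, 23 genes were present in the 3 KO tumor libraries alone, 4 in KO TDLN alone, 11 in WT tumor alone and 2 in WT TDLN alone. The mean of Mexis, 11.6, lay under the filter of 24.9 normalized counts. It is the gene that passed the interaction test when no filter was applied, with a limma adjusted p of 0.0267 over 26962 genes. With no filter and other choices of pseudocount, model or libraries, that adjusted p ran from 0.00249 to 0.326. In mice Mexis is known to act on the nearby Abca1, the cholesterol exporter (GRCm38 chromosome 4, 53030787 to 53159895, minus strand). Abca1 had 175 to 755 in KO tumor and 342 to 420 in WT tumor, then 50.3 to 122 in KO TDLN and 52.5 to 102 in WT TDLN, with overlap in both tissues.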

How the data were processed

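RNA sequencing libraries, 12 in all, were assigned to 4 groups of 3 from the genotype and tissue in their labels. The deposited signal values are Partek normalized counts, per the file headers, for 26962 genes. Of values under 50 reads, 86.7% to 89.4% per library are multiples of a whole read (tolerance 0.01 reads), so the reported fit is on the log2 scale, with limma-voom on estimated reads as an alternative. The submitters' processing notes name GRCm38 and GRCm39 without saying what each was used for. No aligner or counting tool is stated in the labels. The table holds 0 columns of other samples.

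A gene was kept where its mean reached 1 CPM (24.9 normalized counts). The same amount was added before log2 was taken, which understates differences of low genes. One limma fit (limma 3.58.1, R 4.3.3) gave each group a mean with an intensity trend, 8 residual and 4.47 prior degrees of freedom, two-sided tests, Benjamini-Hochberg adjustment over all genes and 95% intervals with a quantile of 2.17. The script was checked on simulated data. Depth limits precision, and values of low genes rest on few reads.

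The 36 gene lists hold 633 symbols, of which 623 were found and 582 tested. Members and lists were chosen with earlier results of these data known. Named genes were Pik3ip1, the 10 smallest p in each direction, the 5 largest crossed genes in each direction, the 3 smallest p of each list and 12 T-cell genes, of which a selection is given. Exceptions are marked, and some list members are not reported here by name. Promoters came from RefSeq, and the other computations used Python 3.11.15, numpy 2.4.6, pandas 2.3.3 and matplotlib 3.10.9. Alternatives covered pseudocount, filter, scaling, variance model, weights, model, replicate block and libraries left out, and the choices that concern Xist were added after seeing the data.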

Additional observations from a re-analysis of the deposited data

Results flagged for a closer look

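Of the results, 2 call for a closer look. In 40 genes the KO and WT libraries did not overlap in either tissue and lay in opposite orders, so every KO library moved one way in tumor and the other way in TDLN. The interaction test, which compares these differences directly, passed for 0 of the 40. They are 0.249% of the genes tested, and 36 genes were separated the same way in both tissues. Opposite orders were thus about as frequent as the same order.

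Mexis was present in the KO tumor libraries, at 37.4 normalized counts or more, and listed at 0 in the other 9 libraries. It was outside the genes tested because its mean was under the filter on low values. Its depth of about 38 to 41 estimated reads per KO tumor library was small, and the cause of this pattern was not tested.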

How the results depend on the processing

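The interaction gave 0 calls under 28 of 29 settings and 1 call with no filter on low values. Outside these 29, fits with no filter and a library left out in turn gave 0 to 21 calls, the most without KO tumor replicate 2. Genes with an unadjusted p under 0.05 numbered 263 to 984 over the 29 settings, and 911 and 984 without WT tumor replicate 1 and without WT tumor replicate 4. They divided into 298 above and 167 below 0 as reported, 409 and 97 with columns rescaled to a common total, 240 and 206 after quantile normalization, and 294 and 368 without the 4 libraries with Xist. The common total moved the median interaction of all genes to 0.09. KO against WT in tumor had 6 calls with no filter and 0 to 10 over the libraries left out in turn, with 10 without WT tumor replicate 1, and KO against WT in TDLN had 0 throughout. Tumor against TDLN in KO had 3056 to 5589 calls over the libraries left out, the fewest without KO TDLN replicate 1. Pik3ip1 stayed between -1.20 and -0.54 over the libraries left out.

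Of 1969 values of 71 other named genes under the alternatives, 0 passed the threshold and 23 had the opposite sign, in 5 genes. H2-Ob was 0.89 with limma-voom, Ccnb1 was -0.15 without the 4 libraries with Xist, and Tcf7 was -0.95 on the square root scale. Tcf7 ran from -0.47 to 1.21, Pdcd1 from -0.35 to 0.29 and Ifng from -0.96 to 1.01 over the libraries left out. Pdcd1 was 0.01 with a pseudocount of 0.25 CPM, 0.09 with a common total, 0.05 with quantile normalization and 0.03 with limma-voom. Ifng was 0.01 with a pseudocount of 5 CPM, 0.04 with a common total, 0.05 with quantile normalization, 0.61 with array weights and 1.02 without the 4 libraries with Xist. The causes were not tested. Of 971 list medians under alternatives, 901 moved by less than 1 SD of the list's level.

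Replicate numbers are shared between tissues, and the labels do not state whether equal numbers mean the same mouse. After removal of group means, 1 of 6 same-number pairs correlated above 0.1, with r from -0.04 to 0.20. Of 12 libraries, 4 correlated best with their own number. Xist, however, was held by replicate 3 of both tissues in both genotypes. Such weak correlations cannot decide whether the libraries are paired. With a fixed replicate block 0 genes were called and 487 had an unadjusted p under 0.05, with Pik3ip1 at -0.86. With a random block the counts were 0 and 520.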

Other observations

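T-cell receptor alpha and beta V and J segments stood out by the size of their interactions. Of 51 segments tested, 12 lay above 1 and 16 below -1 on the log2 scale, which is 54.9% against 5.37% of all genes. Their median standard error was 1.21, against 0.43 over all genes, and 7 had an unadjusted p under 0.05, where 2.89% of all genes did. The gene with the largest absolute interaction of all was Trbv20, at -6.16. It ran from 1.39 to 382 in KO tumor and from 383 to 8980 in WT tumor, then from 57.6 to 783 in KO TDLN and from 15.8 to 242 in WT TDLN. Trav7-4, at 4.59, was the highest segment, with 10.9 to 661 in KO tumor and 0 to 55.1 in WT tumor, then 2.19 to 12.5 in KO TDLN and 10.5 to 170 in WT TDLN. Libraries within a group differed many fold for both. Segments made up 8 of the 20 largest absolute interactions. Segments resemble each other, and their reads may have been split between copies. The cause of the spread between libraries was not tested.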
